A study of Mus musculus with 1470 samples.

Results

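The transcripts described here encode 8 lysosomal proteases (Ctsb, Ctsc, Ctsd, Ctss, Ctsl, Ctsz, Ctsh and Lgmn), a protein of the lysosomal membrane (Lamp1) and lysosomal acid lipase (Lipa). They were chosen by symbol, and all 10 were found among the 14915 gene rows of the deposited expression table. Liver non-parenchymal cells (NPCs, a preparation depleted of hepatocytes) of 3 mice on a normal diet (ND) and 3 mice on a high-fat diet (HFD) were sorted as single cells into plates and profiled by Smart-seq2, which covers whole transcripts and carries no unique molecular identifiers. The animals were male wild-type C57BL/6J mice, with no transgene or allele that differed between the diets, and the HFD was fed for several weeks before digestion of the liver by perfusion with collagenase. The table holds 718 ND cells and 752 HFD cells, 1470 in all, each labeled with its mouse, and the question for these genes is how their levels are spread over the cell types of the liver and whether they differ between the diets.

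Lysosomes break down proteins, lipids and sugars that cells take up or turn over, and the cathepsins are their main proteases. Most are cysteine proteases (Ctsb, Ctsc, Ctss, Ctsl, Ctsz and Ctsh), Ctsd is an aspartic protease, and legumain (Lgmn) cuts after asparagine and processes other cathepsins. In antigen-presenting cells Ctss trims the invariant chain of MHC class II, and in the liver both the resident macrophages, the Kupffer cells, and the sinusoidal endothelial cells clear material from the blood into lysosomes. Many lysosomal genes carry an E-box with the core CACGTG near their start, which the transcription factors TFEB, TFE3 and MITF bind.

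Promoters are shown for 3 members in which a motif searched was found directly before the annotated start of the gene and whose levels had different orders over the cell types. Sequences and starts are from RefSeq on GRCm38.p6, the assembly of mm10, and each run below is the 250 bases before the start, read 5′ to 3′ on the strand of the gene. Capitals mark the E-box CACGTG in Lamp1 and Ctsd, and in Ctss the interferon-stimulated response element (GAAA, any 2 bases, GAAA) that interferon regulatory factors recognize. Lamp1 is on chr8:13158911-13159160 (plus strand), Ctsd on chr7:142387828-142388077 (minus strand) and Ctss on chr3:95526536-95526785 (plus strand).
Lamp1: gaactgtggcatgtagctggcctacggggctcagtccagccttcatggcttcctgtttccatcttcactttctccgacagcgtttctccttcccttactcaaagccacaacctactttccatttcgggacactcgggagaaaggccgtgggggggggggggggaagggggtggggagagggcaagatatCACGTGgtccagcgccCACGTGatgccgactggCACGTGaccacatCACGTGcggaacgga
Ctsd: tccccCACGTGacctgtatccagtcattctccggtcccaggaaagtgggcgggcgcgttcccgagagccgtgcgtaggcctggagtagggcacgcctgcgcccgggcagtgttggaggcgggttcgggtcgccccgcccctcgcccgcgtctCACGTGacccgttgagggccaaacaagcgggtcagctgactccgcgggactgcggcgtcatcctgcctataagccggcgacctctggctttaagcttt
Ctss: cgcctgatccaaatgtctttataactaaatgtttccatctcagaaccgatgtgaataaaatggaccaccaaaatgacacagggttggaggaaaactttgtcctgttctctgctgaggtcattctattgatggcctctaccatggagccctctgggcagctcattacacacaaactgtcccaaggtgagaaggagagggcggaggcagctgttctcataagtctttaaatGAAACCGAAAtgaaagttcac

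Lamp1 held 4 copies of CACGTG, at 61, 45, 28 and 15 bases before the start, whereas Ctsd held 2 copies, 98 bases before it and near the far end of the window. Over all 32851 windows of the promoter table, read on both strands, 6.02% held at least 1 copy and 0.0213% (7 windows) held 4 or more. Windows were found for 8 of the 10 members, and 4 of these (Ctsd, Ctsl, Lgmn and Lamp1) had the E-box in a window. The matching windows of Ctsl and Lgmn lie inside the annotated span of their genes, and the window of Ctsc overlaps its gene. The longer form GTCACGTG, which overlaps the E-box, was in 1.85% of all windows and in those of Ctsd, Lgmn and Lamp1. That response element was in 2.98% of all windows and in those of Ctss and Lamp1, and the PU.1-type motif GAGGAAGT was in 2.44% and in that of Ctsc. These are matches of letters in a fixed window and carry no measurement of binding.

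Cells were grouped by clustering with the 10 members and a list of other lysosomal genes left out, and the clusters were named from lists of marker genes. This gave 454 endothelial-like, 243 Kupffer-like, 46 NK-like, 36 hepatocyte-like, 35 monocyte/DC-like, 22 plasmacytoid dendritic cell (pDC)-like and 15 neutrophil-like cells, while 46 cells led by hemoglobin genes stayed unnamed. T-like cells numbered 23 to 79 and B-like cells 23 to 55 in a mouse. Each named list was highest in its own class, for example 9.23 for the Kupffer markers in Kupffer-like cells, as a mean log2(RPKM + 1), against 2.20 to 2.93 in the endothelial-like, monocyte/DC-like, T-like, B-like and NK-like cells. The monocyte/DC-like cluster was led by monocyte genes (S100a4, Plac8, Lyz2), so conventional dendritic cells were not separated in it. No class was named for monocyte-derived macrophages, and which class holds them was not tested. The monocyte/DC marker list was at 3.38 in monocyte/DC-like and at 0.80 in Kupffer-like cells. The classes are groups rebuilt from these libraries and need not be those of the study. Levels below are means of log2(RPKM + 1) over the cells of a class within a mouse, and the mouse is the replicate.

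Cells differed in depth and in foreign transcripts between mice. The median number of genes with at least 1 RPKM per cell ranged from 1595.5 in HFD mouse 2 to 3163 in HFD mouse 3. Kupffer markers were at or above 1 RPKM in 52.8% to 60% of cell and marker pairs in the NK-like, T-like, endothelial-like, B-like and monocyte/DC-like cells, although 0 of the 10 markers were at 0 in all cells of any of these. In endothelial-like cells their mean RPKM, as a median over the 10 markers, was 0.153% to 1.11% of that in Kupffer-like cells of the same mouse in 5 mice and 8.63% in HFD mouse 3. The part of such transcripts in the members' levels outside Kupffer-like cells was not tested, and the members are given beside this background.

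Kupffer-like cells had the highest mean level of 8 of the 10 members among the 6 classes with enough cells in most mice, and the other members were highest in endothelial-like cells (Ctsl) and in monocyte/DC-like cells (Ctsz). Of the 8, Ctsh was above its monocyte/DC-like level in 3 of 6 mice and Lipa in 4 of 6. The share of all genes that were highest in Kupffer-like cells was not computed. In the rarer pDC-like cells, with 4 to 7 cells in each of 4 mice, Ctsl, Ctsz and Ctsh had higher means still. The 10 genes together made up 1.60% ± 0.21 of the summed RPKM of a Kupffer-like cell (SD, n = 6 mice). The share was 0.597% ± 0.067 in monocyte/DC-like cells and 0.465% ± 0.038 in endothelial-like cells (n = 6 mice each). It was lowest in T-like cells among the 6 classes, at 0.149% ± 0.028, and in hepatocyte-like cells it was 0.0463% ± 0.011 (n = 4 mice). Of the 10 members, 9.25 ± 0.67 were at or above 1 RPKM in a Kupffer-like cell and 7.39 ± 1.5 in a T-like cell. Most members thus reached this cut-off in each class, at levels that differed between classes. In T-like cells the Kupffer markers also reached it in 55.6% of cell and marker pairs, so the cut-off alone does not show expression there.

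**Figure D1:**
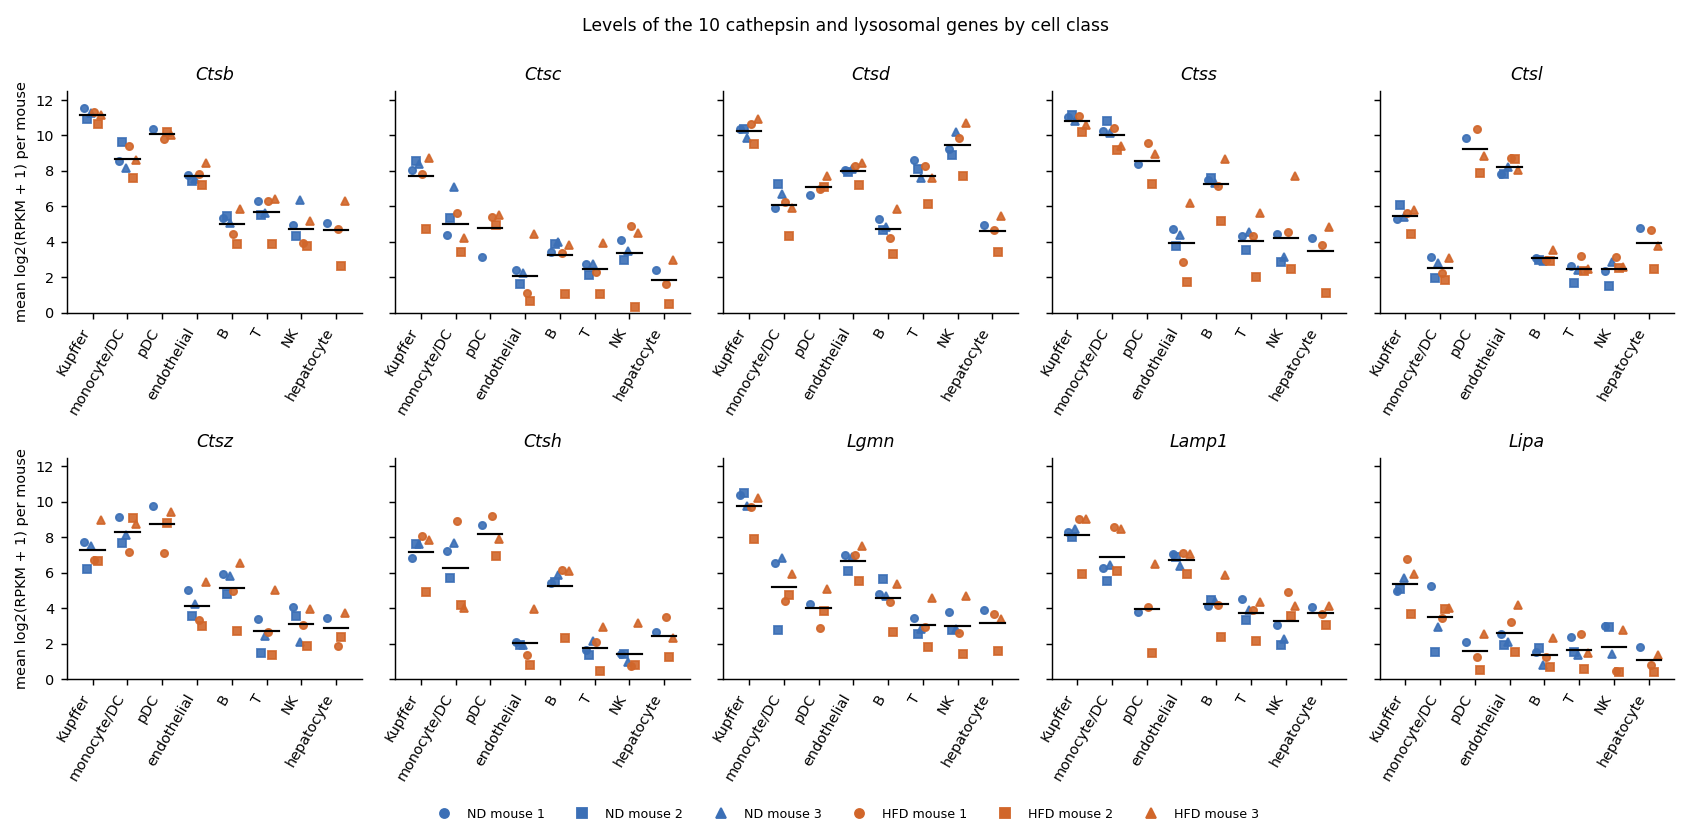
Mean log2(RPKM + 1) of each member (panels) in each cell class (horizontal axis) for the 6 mice, with 1 point per mouse and a bar at the mean. Ctsb sits between 10.66 and 11.54 in the Kupffer-like cells of the 6 mice, above its level in the other classes, whereas Ctsl is higher in endothelial-like and pDC-like cells than in Kupffer-like cells.

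Ctsb, an abundant cysteine protease, had the highest mean of the group in Kupffer-like cells, with a lowest mouse at 10.66, a median of 11.21 and a highest mouse at 11.54. In endothelial-like cells it ranged from 7.18 to 8.45 with a median of 7.64. No endothelial-like value reached the Kupffer-like range, and the difference was 3.45 ± 0.20 (SE) on the log2 scale, with adjusted p = 1.59e-09 (limma, 6 of 6 mice). pDC-like cells came second at 10.09 ± 0.23 (n = 4 mice), and their range did not overlap that of the Kupffer-like cells. Ctsb was also present in T-like cells at 5.67 ± 0.96 and B-like cells at 5.01 ± 0.73 (SD, n = 6), whose ranges overlapped.

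Ctsd, the aspartic protease, was spread differently. Its Kupffer-like values were 9.53, 10.36 and 10.93 (lowest, median and highest mouse), followed by NK-like cells at 7.73, 9.55 and 10.72, which overlapped them. Endothelial-like cells at 8.01 ± 0.44 and T-like cells at 7.72 ± 0.87 came next and did not differ beyond their spread (difference 0.29, 95% interval -0.19 to 0.77, adjusted p = 0.276, limma). Monocyte/DC-like cells had less Ctsd than both, with 6.06 ± 0.99, and B-like cells had the least of the 6 classes, with 4.70 ± 0.88. Ctsd was therefore 3.02 ± 0.26 higher in T-like than in B-like cells of the same mice (adjusted p = 6.3e-08, limma, 6 of 6 mice), the largest difference of any member between these lymphocytes in that direction.

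Ctss, Ctsh and Ctsz, 3 cysteine proteases of antigen-presenting cells, had a common order in which B-like cells stood above T-like and endothelial-like cells. Ctss was at 10.82 ± 0.37 in Kupffer-like cells, 10.05 ± 0.62 in monocyte/DC-like cells and 7.25 ± 1.13 in B-like cells (SD, n = 6). It was at 4.07 ± 1.2 in T-like and 3.94 ± 1.55 in endothelial-like cells, so that B-like cells exceeded T-like cells in 6 of 6 mice. Ctsh was at 7.15 ± 1.18, 6.29 ± 1.98 and 5.23 ± 1.47 in the first 3 of these classes, at 1.78 ± 0.85 in T-like and at 2.01 ± 1.08 in endothelial-like cells. The last 2 classes thus stood in the opposite order for Ctss and Ctsh, with differences within their spread. Ctsz was highest in monocyte/DC-like cells at 8.33 ± 0.81, with 7.30 ± 1.0 in Kupffer-like and 5.12 ± 1.35 in B-like cells. In pDC-like cells Ctsz was at 8.77 ± 1.19 and Ctsh at 8.20 ± 0.99 (n = 4 mice), the highest class mean for each, with ranges that overlapped those of the next class.

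Ctsl, another cysteine protease, had a different order from the other members. Its endothelial-like values were 7.84, 8.14 and 8.72 (lowest, median and highest mouse) and its Kupffer-like values were 4.43, 5.51 and 6.10, without overlap. It was 2.78 ± 0.27 lower in Kupffer-like than in endothelial-like cells, which held in 6 of 6 mice (difference -2.78, adjusted p = 4.74e-07, limma). pDC-like cells had 7.91 to 10.37 in 4 mice, a range that overlapped the endothelial-like one. In T-like, NK-like and monocyte/DC-like cells Ctsl averaged 2.46, 2.50 and 2.52, and in B-like cells 3.07.

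Ctsc, which activates serine proteases of granules, and Lgmn were most abundant in Kupffer-like cells, where Ctsc had the widest spread of the 10 members. Ctsc was at 8.03, 8.59 and 8.39 in ND mice 1, 2 and 3 and at 7.83, 4.71 and 8.71 in HFD mice 1, 2 and 3. HFD mouse 2 was thus far below the other 5, and the class mean of 7.71 ± 1.51 carries that spread. Lgmn was at 10.39, 10.52 and 9.74 in the ND mice and at 9.70, 7.93 and 10.19 in the HFD mice. Endothelial-like cells were second for Lgmn, at 6.67 ± 0.71, and their range did not overlap the Kupffer-like one.

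Lamp1, a heavily glycosylated protein of the lysosomal membrane, was at 8.13 ± 1.14 in Kupffer-like, 6.90 ± 1.30 in monocyte/DC-like and 6.73 ± 0.47 in endothelial-like cells. These 3 ranges overlapped. Kupffer-like cells of HFD mouse 2 were at 5.93 and those of the other 5 mice at 8.02 to 9.02, so the overlap with endothelial-like cells, whose highest mouse was at 7.09, rests on that mouse. Lymphocytes had less, with 4.23 ± 1.12 in B-like and 3.70 ± 0.86 in T-like cells. Lipa, which releases cholesterol and fatty acids from lipids taken up by the cell, had the lowest mean of the members in Kupffer-like cells, with 3.68, 5.39 and 6.78 in the lowest, median and highest mouse, a range that overlapped that of Ctsl. It averaged 3.51 ± 1.24 in monocyte/DC-like and 2.59 ± 0.96 in endothelial-like cells, and its ranges overlapped between neighboring classes throughout the order.

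Between Kupffer-like and endothelial-like cells of the same mice, 9 members were higher and 1 (Ctsl) was lower in Kupffer-like cells after adjustment over 4766 genes, of which 55.6% passed in either direction, 17.8% higher and 37.8% lower. The differences ran from -2.78 for Ctsl to 6.88 ± 0.40 for Ctss, with a median of 3.13 over the members and -0.31 over all genes tested. Ctsc differed by 5.61 ± 0.34, Ctsh by 5.14 ± 0.31, Ctsz by 3.18 ± 0.20, Lgmn by 3.07 ± 0.25 and Lipa by 2.77 ± 0.25. Ctsd differed by 2.27 ± 0.19 and Lamp1, the smallest of those that were higher, by 1.39 ± 0.26 (adjusted p = 0.000311, limma, 5 of 6 mice), though Lamp1 did not pass the exact sign-flip permutation test (p = 0.0625, two-sided, n = 6 mice). The clusters behind the classes were built from the same cells, though without these genes.

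The size of these levels in endothelial-like cells was also read against Kupffer-like cells of the same mouse. Ctsl was at 178% to 513% of its Kupffer-like mean RPKM, Lamp1 at 37.1% to 67.1% and Ctsd at 23.4% to 43.5%. Ctsb was at 10.4% to 20%, Ctsz at 10.2% to 31.3%, Lgmn at 15.2% to 34% and Lipa at 12.2% to 26.8%. Ctsc was lower, at 0.399% to 1.73% in 5 mice and at 8.40% in HFD mouse 3, next to marker medians of 0.153% to 1.11% and 8.63%. Ctss was at 1.05% to 3.24% in those 5 mice and at 12.8% in HFD mouse 3, and Ctsh at 1.27% to 5.97% and 22.9%. With medians over mice of 1.39% (Ctsc), 2.15% (Ctss) and 2.33% (Ctsh), these 3 members were the closest to the Kupffer markers. They were highest in the mouse in which the markers were highest, and so were Ctsb and Lipa. Ctsc was above the marker median in 5 of 6 mice, and each of the other 9 members in 6 of 6. Ctsl, Lamp1 and Lipa were above each of the 10 markers in 6 of 6 mice, Ctsb, Ctsd, Ctsz, Ctsh and Lgmn in 5, Ctss in 4 and Ctsc in 3. In HFD mouse 3 the highest single marker was at 25.5%, above each member but Ctsl, Lamp1 and Lipa.

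**Figure D2:**
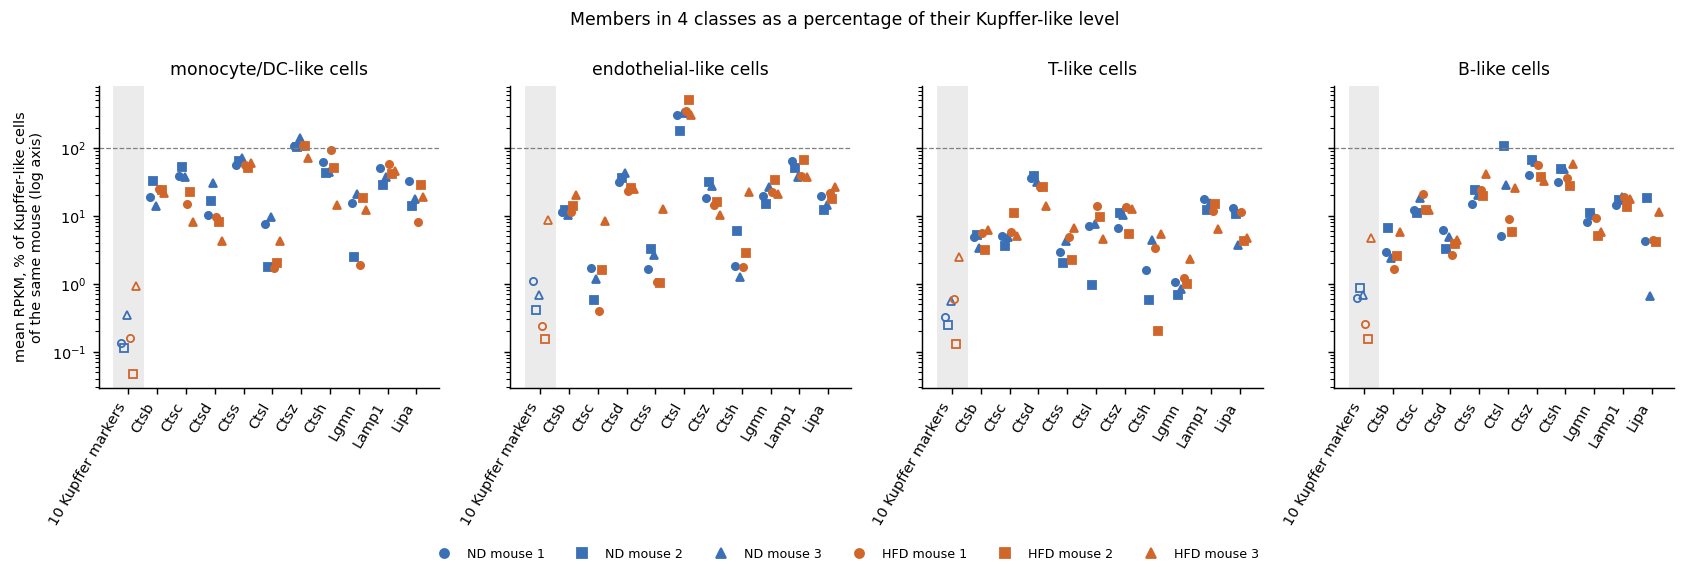
Mean RPKM of each member in 4 classes as a percentage of its mean RPKM in Kupffer-like cells of the same mouse (log axis, 1 point per mouse), with the median over 10 Kupffer markers as open symbols in the shaded column. Ctsl lies above the dashed line at the Kupffer-like level in endothelial-like cells and Ctsz lies near it in monocyte/DC-like cells, and the marker median is highest in HFD mouse 3 in each panel.

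Monocyte/DC-like cells shared part of the Kupffer-like set. In the 5 mice with at least 5 such cells, 5 members were higher in Kupffer-like cells and 0 were lower, where 24.6% of 5389 genes passed in either direction, 3.6% higher and 21% lower. The 5 were Lgmn (4.39 ± 0.60), Ctsd (4.18 ± 0.49), Ctsl (2.83 ± 0.47), Ctsc (2.78 ± 0.53) and Ctsb (2.59 ± 0.47), each in 5 of 5 mice. Differences that did not pass were 0.80 for Ctss (95% interval -0.13 to 1.73, adjusted p = 0.178), 1.2 for Ctsh (0.02 to 2.39, adjusted p = 0.119) and -1.15 for Ctsz (-2.16 to -0.13, adjusted p = 0.0892, limma). Lamp1 at 1.38 (adjusted p = 0.0501) and Lipa at 1.53 (adjusted p = 0.0561, limma) lay at the threshold. The count rests on 5 to 7 monocyte/DC-like cells per mouse and moved from 3 to 9 with the settings, and the smallest exact p over 5 mice is 0.0625.

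Among the genes that did not pass there, Ctsz was at 71.4% or more of its Kupffer-like mean RPKM in monocyte/DC-like cells of each mouse, with a median of 105%, and Ctss at 51.5% to 70.2%. The median of the Kupffer markers in these cells was 0.0466% to 0.917% over the mice and the highest single marker was at 7.74%, and both proteases were above each of the 10 markers in each of the 6 mice. Ctsl, in contrast, was at 1.69% to 9.78% there. Against endothelial-like cells, monocyte/DC-like cells had more Ctss (5.81 ± 0.56), Ctsz (4.29 ± 0.46), Ctsh (3.62 ± 0.67) and Ctsc (2.61 ± 0.60) and less Ctsl (difference -5.55 ± 0.43) and Ctsd (-1.92 ± 0.43), where 31.4% of 5889 genes passed, 21.3% higher and 10.1% lower. Against B-like cells 6 members were higher and 0 lower (25.2% of 5468 genes passed, 21.3% higher and 3.82% lower), and against T-like cells 8 were higher and 1, Ctsd, was lower (18.7% of 5824 genes passed, 13.5% higher and 5.24% lower). Most of these calls depended on the settings, since the count against B-like cells fell to 1 without the filter on low values, with RPKM averaged first or with each gene's own spread. The count against T-like cells fell to 4 without the filter and to 3 with each gene's own spread.

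Each of the 10 members was higher in Kupffer-like than in T-like cells and in Kupffer-like than in B-like cells. The background was 67.8% of 5098 genes in either direction, 16.1% higher and 51.7% lower, against T-like cells, and 53.4% of 4382 genes, 23.5% higher and 29.9% lower, against B-like cells. Differences ran from 2.56 (Ctsd) to 6.76 (Ctss) against T-like cells and from 1.92 (Ctsh) to 6.13 (Ctsb) against B-like cells. Ctss, Ctsz and Ctsh had smaller differences against B-like cells (3.58, 2.18 and 1.92) than against T-like cells (6.76, 4.57 and 5.37), as B-like cells held more of them. For Ctsl, the 1 member that was highest in endothelial-like cells among the 6 classes, the background is that of 12 endothelial markers. As a percentage of its endothelial-like mean RPKM, Ctsl was at 19.5% to 56.1% in Kupffer-like cells, where the median of the markers was 1.16% to 2.93% and the highest single marker 79.7%. It was above each marker in 1 of 6 mice there. In T-like cells Ctsl was at 0.538% to 3.97% next to marker medians of 0.507% to 3.46%, and it was above the median in 5 of 6 mice.

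**Figure D3:**
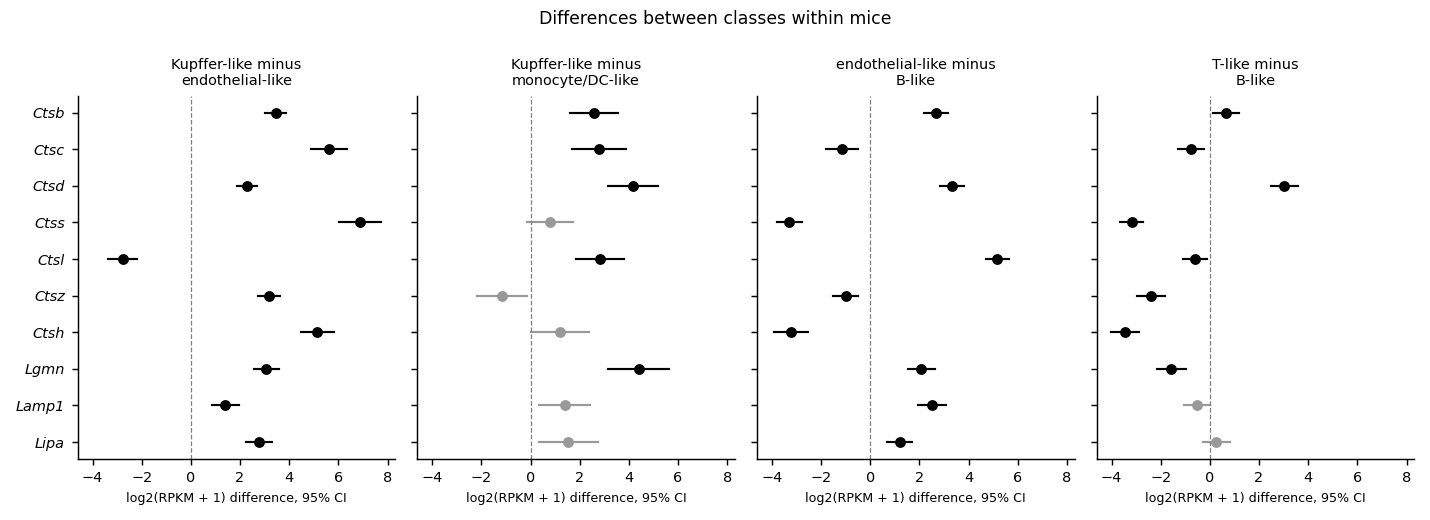
Difference in mean log2(RPKM + 1) between classes within mice for the 10 members in 4 comparisons, with 95% confidence intervals and filled black points where the adjusted p of limma was under 0.05. Ctsl is the single member to the left of 0 in the first panel, and Ctss, Ctsh, Ctsz and Ctsc are to the left in both panels that set a class against B-like cells.

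Endothelial-like cells differed from B-like cells in both directions, with 6 members higher and 4 lower, where 53.5% of 4979 genes passed, 33.6% higher and 19.9% lower. Higher were Ctsl (5.16 ± 0.22), Ctsd (3.31 ± 0.23), Ctsb (2.68 ± 0.23), Lamp1 (2.51 ± 0.26), Lgmn (2.07 ± 0.27) and Lipa (1.2 ± 0.24). Lower in endothelial-like cells were Ctss (difference -3.30 ± 0.24), Ctsh (-3.22 ± 0.32), Ctsc (-1.16 ± 0.31) and Ctsz (-1.0 ± 0.25), the cathepsins linked above to antigen presentation and granules. In the exact sign-flip permutation test (two-sided, n = 6 mice) Ctsc (p = 0.0938) and Ctsz (p = 0.0625) did not pass, and Ctsc was also lost without the filter on low values and with each gene's own spread. Against T-like cells 6 members were higher in endothelial-like cells (60.6% of 5543 genes passed, 24.1% higher), led by Ctsl at 5.77 ± 0.21, Lgmn at 3.64 ± 0.21 and Lamp1 at 3.03 ± 0.22. Ctsc, Ctsd, Ctss and Ctsh did not pass there, with differences from -0.39 to 0.29. The count of members that passed ran from 5 to 8 with the settings, and Lipa did not pass without the filter, with each gene's own spread or in cells with more markers of their own class than of any other.

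The lymphocyte classes differed from each other as well. Between T-like and B-like cells 2 members were higher in T-like cells (Ctsd, 3.02 ± 0.26, and Ctsb, 0.66 ± 0.25) and 6 were lower, where 43.2% of 4865 genes passed, 34.6% higher and 8.63% lower. The 6 were Ctsh (difference -3.45 ± 0.27), Ctss (-3.18 ± 0.22), Ctsz (-2.40 ± 0.27), Lgmn (-1.57 ± 0.27), Ctsc (-0.76 ± 0.25) and Ctsl (-0.61 ± 0.23). In the exact sign-flip permutation test (two-sided, n = 6 mice) Ctsb, Ctsc and Ctsl did not pass (p = 0.0625, 0.125 and 0.0625) while the other 5 did, and without ND mouse 3 the count was also 5 in limma. Between NK-like and T-like cells 0 members passed in 4 mice, where 1.89% of 4764 genes passed (0.798% higher and 1.09% lower), and the largest difference was that of Ctsd (1.40, 95% interval 0.40 to 2.41, adjusted p = 0.182, limma, 4 of 4 mice).

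Endothelial-like cells came from 2 clusters, a smaller one with more Clec4g and one of 269 cells with less (means of 11.96 and 10.75), and both held the endothelial markers. Clec4g is used here only as a name for the split. Each of the 12 endothelial markers was higher in the smaller cluster (list level 8.19 against 6.76). Clec4g was among the 10 leading genes of the larger cluster and not of the smaller one. Since these clusters were drawn in the same cells, their differences are a description. In the cluster with more Clec4g, Lgmn was higher (7.88 ± 0.76 against 5.75 ± 0.99), as were Lamp1 (7.52 against 6.10), Ctsd (8.80 against 7.42), Ctsl (8.98 against 7.66) and Ctsb (8.09 against 7.41). Ctss (2.99 against 4.54), Ctsc (1.51 against 2.46) and Ctsh (1.44 against 2.38) were lower in it. That made 5 members past the threshold upward and 3 downward, where 44.5% of 5266 genes were higher and 2.24% lower, and the median difference of all genes was 0.59 against 0.52 for the members. With RPKM averaged before the logarithm, 1 member passed.

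Other measures moved with this split. The cluster with more Clec4g had a median of 3089 genes per cell against 2332, and both zonal endothelial lists were higher in it (pericentral 3.39 against 1.78, periportal 3.43 against 2.66). The other cluster had more Kupffer transcripts (list level 3.28 against 2.33) and more hepatocyte transcripts (3.69 against 2.84). Their part in the values of Ctss, Ctsc and Ctsh, the members that were lower with more Clec4g, was not tested.

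**Figure D4:**
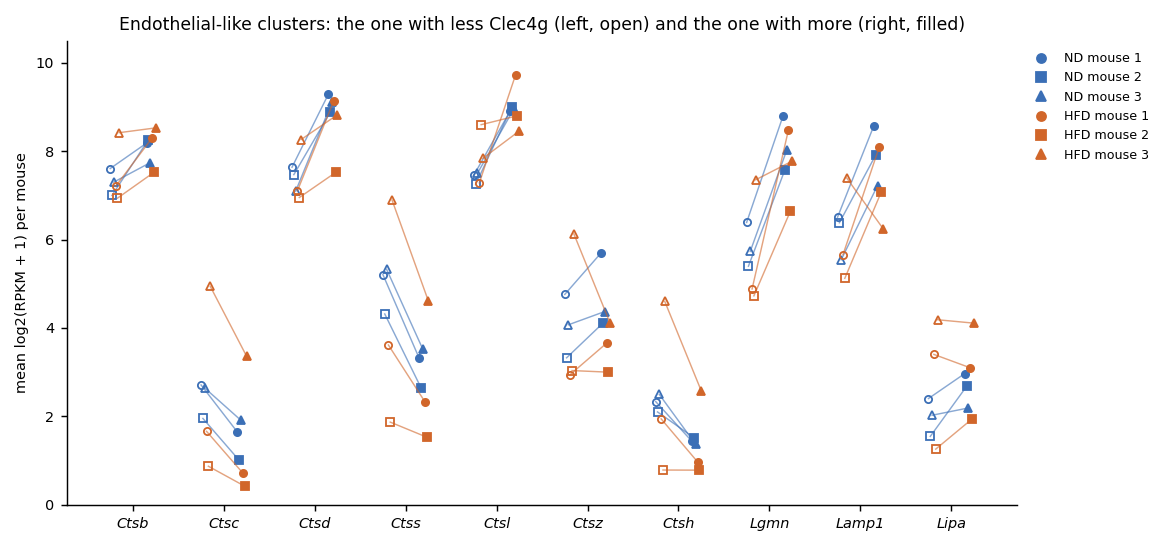
Mean log2(RPKM + 1) of the members in the endothelial-like cluster with less Clec4g (open) and with more (filled), with a line joining the values of 1 mouse. Lines rise in 6 of 6 mice for Lgmn, Ctsd, Ctsl and Ctsb and fall in 6 of 6 for Ctss, Ctsc and Ctsh.

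Kupffer-like cells also came from 2 clusters, one of 111 cells and a larger one, both led by complement genes, Vsig4 and Clec4f. In the cluster of 111 cells, which had more genes per cell (2676 against 2087) and slightly more hepatocyte transcripts (5.01 against 4.75), each of the 10 members had the higher mean, from Ctsl (5.68 against 5.16) to Ctsc (9.09 ± 0.37 against 6.61 ± 2.0). The Kupffer marker list was higher there too (9.89 against 8.69). No test was made of this split, and the share of all genes with a higher mean in the cluster of 111 cells was not computed. The count of members is therefore not a result about these genes.

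Over 33 class and mouse means of the 6 classes, the pairs of members most alike were Ctss and Ctsh (r = 0.938), Ctss and Ctsz (r = 0.899) and Lgmn and Lamp1 (r = 0.888). Ctsl was unlike Ctss (r = -0.0517) and Ctsh (r = 0.00848), and Ctsd was unlike Ctsz (r = -0.00292). These are descriptions over points that share mice and classes. Among 4245 genes, the most like Ctsl were Sepp1 (r = 0.977), Mrc1 (0.971) and the endothelial cadherin Cdh5 (0.969). Those most like Ctss were Ifi30 (0.957), a reductase of the antigen-processing pathway, Ly86 (0.956) and Ctsh, and those most like Ctsz were Pld4 (0.934), Spi1 (0.930), which encodes PU.1, and Gpx1 (0.92).

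The remaining members had their own nearest genes. Ctsb was most like the ferritin light chain gene Ftl1 (0.960), the lysosomal progranulin gene Grn (0.954) and Sdc3 (0.915). Ctsc was most like the macrophage genes Fcgr1 (0.915), Aif1 (0.915) and Wfdc17 (0.908). Lgmn was most like Apoe (0.941), Lamp1 like Aldh2 (0.919), and Lipa like Pltp (0.889). The nearest genes of Ctsh were Ly86 (0.948) and Ctss. For Ctsd the best match reached 0.814 (Itm2b), the lowest best match of the 10 members.

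Other lysosomal genes, from a list of 92, did not all follow the members. Between Kupffer-like and endothelial-like cells 29 of 65 tested were higher and 7 lower in Kupffer-like cells, where 17.8% of all genes tested were higher and 37.8% lower. The largest differences were those of the macrophage glycoprotein Cd68 (6.57), the hematopoietic membrane protein Laptm5 (5.16) and the tartrate-resistant phosphatase Acp5 (4.30), and the lowest were those of the proton pump subunit Atp6v0a1 (-1.70), Lamp2 (-1.48) and the channel Mcoln1 (-0.82). Lamp2 was thus lower in Kupffer-like cells where Lamp1 was higher. Between Kupffer-like and monocyte/DC-like cells 2 of 67 were higher (Acp5, 4.19, and Tpp1, 2.43) and 12 were lower, led by the aspartic protease Napsa (-5.31) and the ganglioside activator Gm2a (-3.75). Both counts are near the shares over all genes, 3.6% higher and 21% lower.

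Against lymphocytes the list was mostly higher in Kupffer-like cells, with 36 of 67 higher and 8 lower against T-like cells (16.1% and 51.7% of all genes) and 43 of 63 higher and 4 lower against B-like cells (23.5% and 29.9%). Ctsw, a cathepsin of cytotoxic lymphocytes, was the lowest against T-like cells (-5.63). Napsa was the lowest against B-like cells (-4.27). In T-like against B-like cells 16 of 57 were higher, led by Ctsw (5.31), Arsb (2.21) and the cystatin Cst7 (2.03), and 11 were lower, among them Napsa (-3.99) and Gm2a (-1.42). Of all genes in that comparison, 34.6% were higher and 8.63% lower. In endothelial-like against B-like cells 32 of 61 were higher and 7 lower (33.6% and 19.9% of all genes), with Lamp2 (4.02) and Tpp1 (2.38) at the top.

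Between the diets 0 of the 10 members passed in Kupffer-like, endothelial-like, T-like or B-like cells. Neither did any other gene (0% of 3279, 4271, 4510 and 3655 genes tested with limma), and 81 to 150 genes per class had an unadjusted p under 0.05. An exact permutation test of 3 mice per diet cannot give a p under 0.1. The intervals were wide, and for the members they reached from -3.08 to 1.79 in Kupffer-like cells and from -2.29 to 1.96 in endothelial-like cells. The median HFD minus ND difference of the members was -0.29 in Kupffer-like, -0.02 in endothelial-like, -0.12 in T-like and -0.52 in B-like cells. Over all genes tested it was -0.24, -0.09, -0.24 and -0.28. Medians over all genes without HFD mouse 2 or 3 are not reported here, so counts of members below 0 in those fits are not set against them.

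**Figure D5:**
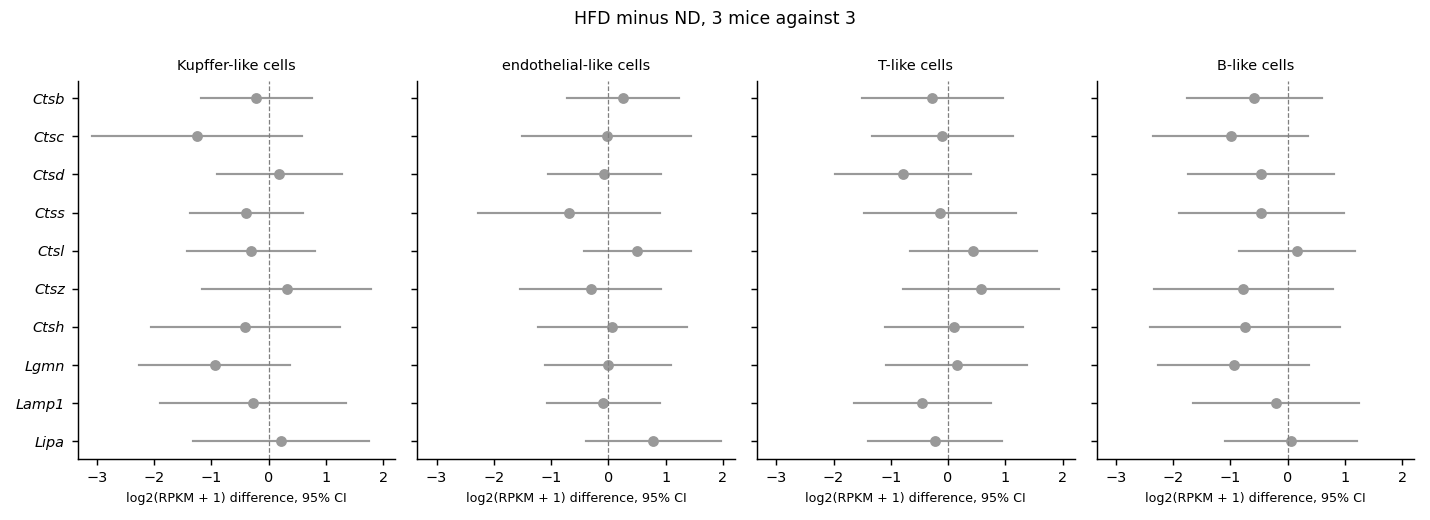
HFD minus ND difference in mean log2(RPKM + 1) of the members in 4 classes, with 95% confidence intervals of limma over 3 mice against 3. The interval of each member spans 0 in each class, and the widest is that of Ctsc in Kupffer-like cells.

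In Kupffer-like cells the HFD minus ND differences of the members ran from -1.25 to 0.31. Ctsc (-1.25 ± 0.84, SE) and Lgmn (-0.95 ± 0.60) were the members whose difference exceeded its error, and both rest on HFD mouse 2. That mouse had the fewest genes per Kupffer-like cell (1380, against 2089 to 3161 in the other 5). Its Kupffer-like cells also had the fewest hepatocyte transcripts, with a mean level of the list of 2.42 against 4.94 to 6.20, and the part of either was not tested. Without HFD mouse 2, Ctsc differed by -0.06 and Lgmn by -0.27. The differences then ran from -0.27 to 1.10, and the highest was that of Lipa (1.10 ± 0.46, adjusted p = 0.999, limma). Without HFD mouse 3 they ran from -2.06 to -0.01, with 10 of 10 below 0 in place of 4 of 10 without HFD mouse 2, so the direction depended on which mice were kept, and 0 passed in either case.

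In endothelial-like cells the differences ran from -0.70 to 0.78. Lipa was at 2.55, 1.92 and 2.11 in the ND mice and at 3.22, 1.54 and 4.16 in the HFD mice (difference 0.78 ± 0.56). It differed by 1.5 without HFD mouse 2 (adjusted p = 0.963, limma) and by 0.19 without HFD mouse 3. Ctsl was at 7.84, 7.84 and 8.24 in the ND mice and at 8.72, 8.69 and 8.03 in the HFD mice (difference 0.51 ± 0.45), so that the diets overlapped for both. Ctss differed by -0.70 ± 0.76, with 4.71, 3.76 and 4.41 in the ND mice and 2.87, 1.73 and 6.19 in the HFD mice. Without HFD mouse 3, in which endothelial-like cells held the most Kupffer transcripts, Ctss differed by -1.99 and passed (adjusted p = 0.0179, limma), where 1.01% of 4070 genes passed, 0.0246% higher and 0.983% lower. In that fit limma gave all genes 1 common spread (SE 0.51 for each member). Without HFD mouse 2 Ctss differed by 0.24. Without HFD mouse 2, 0 of the 10 endothelial-like differences were below 0 in place of 6, and without HFD mouse 3, 8 were.

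In T-like cells the differences ran from -0.79 ± 0.58 (Ctsd) to 0.58 ± 0.67 (Ctsz), and in B-like cells from -1.0 ± 0.64 (Ctsc) to 0.16. Lgmn (-0.95 ± 0.63), Ctsz (-0.77 ± 0.74) and Ctsb (-0.58 ± 0.56) were the other B-like members whose difference exceeded its error. Without HFD mouse 2, Ctsd and Ctsz in T-like cells differed by -0.19 and 1.40 and Ctsc in B-like cells by -0.15. Then 1 of the 10 T-like differences was below 0 in place of 6, and 3 of the B-like ones in place of 8. Without HFD mouse 3, 9 T-like and 10 B-like differences were below 0, among them Ctsz in T-like cells (-0.41), and 0 members passed in either class without either mouse. Diet differences were also compared between classes, in 6 pairs of the 4 classes, and 0 members passed in any pair, where 0% of genes passed. Of the 92 other lysosomal genes, 0 passed between the diets in the 4 classes, with 47 to 61 of them tested.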

How the data were processed

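Reads of 50 bp from single cells were aligned to mm10 with STAR, and the authors deposited RPKM values per RefSeq gene, computed with rpkmforgenes from reads that mapped to 1 place. Low-quality cells and doublets called by Scrublet had been taken out by them. bcl2fastq and STAR are named in the submitters' processing notes. No doublet caller was run here. No count model was fitted to these RPKM values, and intervals cover the spread between mice. Depth was read from the low values, of which 95.8% of 1159606 fell within 0.1 of a whole number of reads (19.4% with depths shuffled among cells). The median relative depth per mouse was 1.23, 1.05 and 0.748 for ND mice 1, 2 and 3 and 1.61, 0.713 and 1.17 for HFD mice 1, 2 and 3. Names of the columns of HFD mouse 2 follow another scheme than those of the other mice. All columns were matched to a labeled cell, and 0 were left out.

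Values were taken as log2(RPKM + 1), which understates the change of low genes, and were averaged over the cells of a class within each mouse. Cells were clustered on 1000 variable genes, centered on the mouse, with 20 principal components, 15 nearest neighbors and spectral clustering into 12 clusters, and named from marker lists with at least 3 markers detected and no more leading genes of another class than of its own. Classes entered a test in mice with at least 5 of their cells. Class pairs were compared within mice and diets between mice with limma, over genes with a mean of at least 1, with Benjamini-Hochberg adjustment over all genes tested and a threshold of 0.05. The procedure was tested on simulated data. The paper states that mice were group-housed and does not give their cages. Mice of a diet may have shared a cage, so an effect of cage cannot be told apart from one of diet. The p-values measure only the spread between these mice. Exact tests were two-sided sign flips (classes) or permutations (diets) over mice.

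All 10 members are named in the comparisons, together with the 3 largest and 3 smallest differences past the threshold among the lysosomal genes and the 3 genes most alike to each member. From these rules the text gives the values that differ most, and some genes are not reported here. Members and lists were chosen with earlier results of these data known. Alternatives covered the pseudocount, filters, averaging before the logarithm, rescaling of cells, clustering, the spread used by limma, the mouse number as a block and leaving out each mouse. Tests used limma 3.58.1 in R 4.3.3, clustering used scikit-learn 1.9.0, and other steps used pandas 2.3.3, scipy 1.17.1 and numpy 2.4.6 in Python 3.11.15.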

Additional observations from a re-analysis of the deposited data

Results flagged for a closer look

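In 8 of 70 groups of mice (a member in a class), 1 mouse stood apart from the others by Dixon's test, where chance alone flags about 1 in 20 groups. In Kupffer-like cells this was HFD mouse 2 for Ctsc (4.71, others 7.83 to 8.71), Lgmn (7.93, others 9.70 to 10.52) and Lamp1 (5.93, others 8.02 to 9.02), as mean log2(RPKM + 1). The same mouse was lowest for Ctsb in T-like cells (3.87, others 5.50 to 6.43) and for Ctsc (1.05, others 3.38 to 3.99) and Ctsh (2.29, others 5.43 to 6.16) in B-like cells. HFD mouse 3 was highest for Ctsl in B-like cells (3.51, others 2.89 to 3.07) and for Ctsh in NK-like cells (3.18, others 0.74 to 1.44), the latter with 3 cells. The cells of HFD mouse 2 had the fewest genes in each of the 6 classes, and in 5 of these classes those of HFD mouse 3 had the most Kupffer-like transcripts, as a share of the level in Kupffer-like cells. The part of either in these values was not tested.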

How the results depend on the processing

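Of 2521 values of members under an alternative, for differences that exceeded their standard error or passed somewhere, 2349 kept their direction and their side of the threshold, 41 newly passed it, 15 changed sign and the remainder fell short of it. None of the 15 had passed in the comparison as reported. Members called in Kupffer-like against monocyte/DC-like cells went from 5 to 8 with a pseudocount of 10, to 3 without the filter on low values, 3 with RPKM averaged first, 3 with each gene's own spread, 9 with 10 principal components and 9 with classes from the marker level (5 to 7 over left-out mice). In monocyte/DC-like against B-like cells 6 became 1 without the filter, 1 with RPKM averaged first and 1 with each gene's own spread, and against T-like cells 9 became 4 without the filter and 3 with each gene's own spread. In T-like against B-like cells 8 became 5 without the filter, 5 with each gene's own spread, 5 in cells with more markers of their own class than of any other, 5 in the exact test and 5 to 7 over left-out mice (5 without ND mouse 3). In NK-like against T-like cells 0 became 1 with 10 principal components, and between the endothelial-like clusters 8 became 5 without the filter, 5 with genes of a mean of at least 3 and 1 with RPKM averaged first. Counts within 1.5 times the reported one were 9 to 10 members in Kupffer-like against endothelial-like and 8 to 10 in endothelial-like against B-like cells. They were 5 to 8 in endothelial-like against T-like and 4 to 8 in monocyte/DC-like against endothelial-like cells. The diet comparison in endothelial-like cells had 0 to 1 members over left-out mice (1 without HFD mouse 3). The cause of these changes was not tested, except that fewer genes or mice entered where the alternative removes them.

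Signs that changed were those of Ctss in endothelial-like against T-like cells (0.0599 with cells rescaled, 0.0505 with clustering that was not centered on the mouse, -0.26 to 0.14 over left-out mice, the highest without HFD mouse 1), Lamp1 in monocyte/DC-like against endothelial-like cells (0.0696 with a pseudocount of 10, -0.49 to 0.21 over left-out mice, with 0.0640 and 0.21 without ND mice 1 and 2), Lamp1 in T-like against B-like cells (0.0487, cells with more markers of their own class) and in NK-like against T-like cells (0.36, classes from the marker level). With RPKM averaged first they were those of Ctsh in monocyte/DC-like against B-like cells (-0.0972), Ctsc in NK-like against T-like cells (-0.0316), Lipa between the endothelial-like clusters (-0.0849) and Ctsz between diets in B-like cells (0.0891). Ctsz there also had 0.12 in cells with at least 2000 genes and -1.67 to 0.25 over left-out mice, and Ctss between diets in endothelial-like cells had -1.99 to 0.24. The highest of both was without HFD mouse 2.

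With the mouse number as a replicate block, 0 members passed between diets in each of the 4 classes, as without it. Deviations of mice with the same number correlated at 0.04, -0.03 and 0.15 in Kupffer-like, -0.11, 0.09 and -0.14 in endothelial-like, 0.17, 0.03 and 0.11 in T-like and 0.20, 0.07 and 0.13 in B-like cells. Each mouse correlated best with its own number in B-like cells, and not in the other 3 classes. Since no class had each pair over 0.1, the mice were taken to share only a number. Clustering without centering, cells with more markers of their own class, and leaving out the Kupffer-like cluster with more hepatocyte transcripts were chosen after seeing the data. Exact tests are not counted for comparisons of 5 or 4 mice or of diets, whose smallest p is above 0.05. Too few monocyte/DC-like cells were left for at least 10 cells per mouse or for cells with more markers of their own class.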
